A study of Mus musculus with 6 samples.

Results

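The 34 genes described here encode nuclear receptors (29 genes) and coregulators that bind them (5 genes), and their rows were taken from the count table by gene symbol. Of these, 33 were found among the 17890 genes of the count table, and Nr1h4 was not analysed here. RNA was sequenced from mouse mast cells of lymph nodes in 6 libraries, 3 labelled as uninvolved nodes (uLN, replicates 1 to 3) and 3 as metastatic nodes (mLN, replicates 1 to 3). Not given in the sources used here are the age, sex, strain and genotype of the mice, the tumour, any treatment, the way the mast cells were purified and whether animals were pooled. The replicates are not labelled as separate mice, so p-values cover the spread among the libraries, and that spread may be technical. The design holds 1 comparison, mLN against uLN, which asks how lymph node mast cells differ when the node contains metastatic tumour.

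Nuclear receptors are transcription factors that carry a DNA-binding domain and, in most, a pocket for a small fat-soluble ligand such as a steroid, a sterol, a fatty acid, thyroid hormone or vitamin D. Many bind DNA as a pair with a retinoid X receptor (RXR), and the receptor on DNA recruits corepressors or coactivators depending on its ligand state. In mast cells, glucocorticoids acting through the glucocorticoid receptor are long known to restrain mediator and cytokine release, and the NR4A receptors are known as immediate early genes of stimulated leukocytes.

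Promoters are shown before the values because Nr4a1 and Rxra had the largest falls among the well-read receptors below, and Nr4a2 shares its promoter feature with Nr4a1 but not its change. RefSeq promoters of GRCm38.p6, 250 bases before to 50 after a start site, matched 30 of the 34 genes with 43 sequences, and the 250 bases before the start are printed on the gene's own strand. In the NR4A sequences, capitals mark TGACG, the core of the cyclic AMP response element, read on both strands, so that it appears as CGTCA where it lies on the opposite strand. The Nr4a1 sequence precedes a start site inside the gene's RefSeq span, which begins upstream at chr15:101253902. In the Rxra sequence, which precedes the downstream of its RefSeq starts, capitals mark AGGTCA, the hexamer bound by many nuclear receptors, which appears as TGACCT on the opposite strand.
Nr4a1, chr15:101266596-101266845, plus strand: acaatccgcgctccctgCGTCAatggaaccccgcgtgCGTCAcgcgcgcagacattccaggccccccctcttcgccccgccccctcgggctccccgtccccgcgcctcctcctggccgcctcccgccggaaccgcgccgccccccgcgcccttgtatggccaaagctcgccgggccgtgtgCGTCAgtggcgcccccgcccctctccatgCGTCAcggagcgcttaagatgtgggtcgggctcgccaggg
Nr4a2, chr2:57124004-57124253, minus strand: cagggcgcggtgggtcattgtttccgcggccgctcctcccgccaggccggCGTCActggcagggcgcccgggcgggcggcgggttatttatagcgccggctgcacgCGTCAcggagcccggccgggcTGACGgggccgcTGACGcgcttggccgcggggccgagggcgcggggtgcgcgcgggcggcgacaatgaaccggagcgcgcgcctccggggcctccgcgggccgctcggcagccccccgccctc
Rxra, chr2:27709042-27709291, plus strand: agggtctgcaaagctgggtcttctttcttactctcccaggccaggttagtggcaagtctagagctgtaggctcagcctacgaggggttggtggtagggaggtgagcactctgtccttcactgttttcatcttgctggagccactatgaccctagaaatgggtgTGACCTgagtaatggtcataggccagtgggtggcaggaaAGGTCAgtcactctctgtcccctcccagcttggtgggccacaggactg
The Nr4a1 window of 300 bases held 4 copies of TGACG, and so did those of Nr4a2 and Nr4a3. Of 32851 mouse promoters of that length, 76 (0.231%) held at least 4 copies and 20.8% held at least 1. The full palindrome TGACGTCA, which contains TGACG on each strand, was in 1.79% of promoters and in 1 of the 43, that of Nr6a1. The Rxra window held 2 copies of AGGTCA, where 1.81% of promoters held at least 2, and 1 copy lies within AAAGGTCA, the element bound by NR4A monomers, which 1.51% of promoters held. The upstream Rxra window, chr2:27676951-27677250, held 0 copies of AGGTCA. The counts are per gene and do not show which start site was used, so a match is a description of the letters only.

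Library totals ran between 17643916 and 17799420 estimated counts, with a rounded count above 0 for 15639 to 16218 genes. All 10 mast cell markers, among them Kit, Fcer1a and Cpa3, were read in every library, and their summed level was 39460 to 41020 CPM (reads scaled to library size) in uLN and 34020 to 36190 in mLN. The markers did not move as one. In mLN 6 were lower, such as Kit (log2 fold change -1.305), and 2 higher, namely Tpsb2 (1.04) and Slc18a2 (0.41). Over all tested genes, 34.2% were lower and 33.2% higher. Fibroblast markers summed to 5.17 to 14.1 CPM in uLN and 13.0 to 113 in mLN, and epithelial markers, Krt5 foremost, to 8.15 to 17.9 and 16.5 to 161, with both maxima in mLN replicate 1. Library mLN replicate 3 stood apart from the other mLN libraries, with a median chi-square per gene of 2.58 and 2.48 against them where mLN replicates 1 and 2 gave 0.736.

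In the fit over all genes, 27 of the 33 genes passed the filter on low counts, and 10 of these were higher and 11 lower in mLN at an adjusted p under 0.05 (quasi-likelihood test of edgeR, adjusted by Benjamini-Hochberg over 12706 genes). The same test called 67.4% of all tested genes, 33.2% higher and 34.2% lower, so the 77.8% called here lies near a high background. Of the 27, 13 were called with a fold of at least 1.5 (32.5% of all genes) and 5 with a fold of at least 2 (15.9%). The groups of 3 libraries did not overlap in 22 of the 27, against 72.9% of all tested genes. The median log2 fold change was -0.01, as both directions were present, and the median size regardless of sign was 0.60, against 0.40 over all tested genes. Nr4a3 and Rxrg passed the filter mainly through mLN and Pparg through uLN, so these counts do not speak for all 33 genes. Among the 24 with at least 10 reads in every library, 9 were higher and 10 lower. Their median size regardless of sign was 0.44, close to the 0.40 over all tested genes.

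By role, 6 of the 22 tested receptors were higher and 11 lower, and 4 of the 5 coregulators were higher and 0 lower, beside 33.2% higher and 34.2% lower over all tested genes. The difference between the roles was not tested. Per kilobase of exons, the most abundant transcripts in uLN were the corepressor Ncor1 at 63.7 CPM per kb, the glucocorticoid receptor gene Nr3c1 at 55.7 and the oxysterol receptor gene Nr1h2 at 50.1. These 3 kept their ranks in mLN, at 86.8, 47.3 and 46.1. Nr1h2 and Nr3c1 were close to each other in mLN, as were Nr4a1 and Ncoa3 in uLN. Nr4a1 held the fourth rank of 33 in uLN and rank 12 in mLN, and Rxra went from rank 8 to rank 13. Thra moved the other way, from rank 9 to rank 6.

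**Figure D1:**
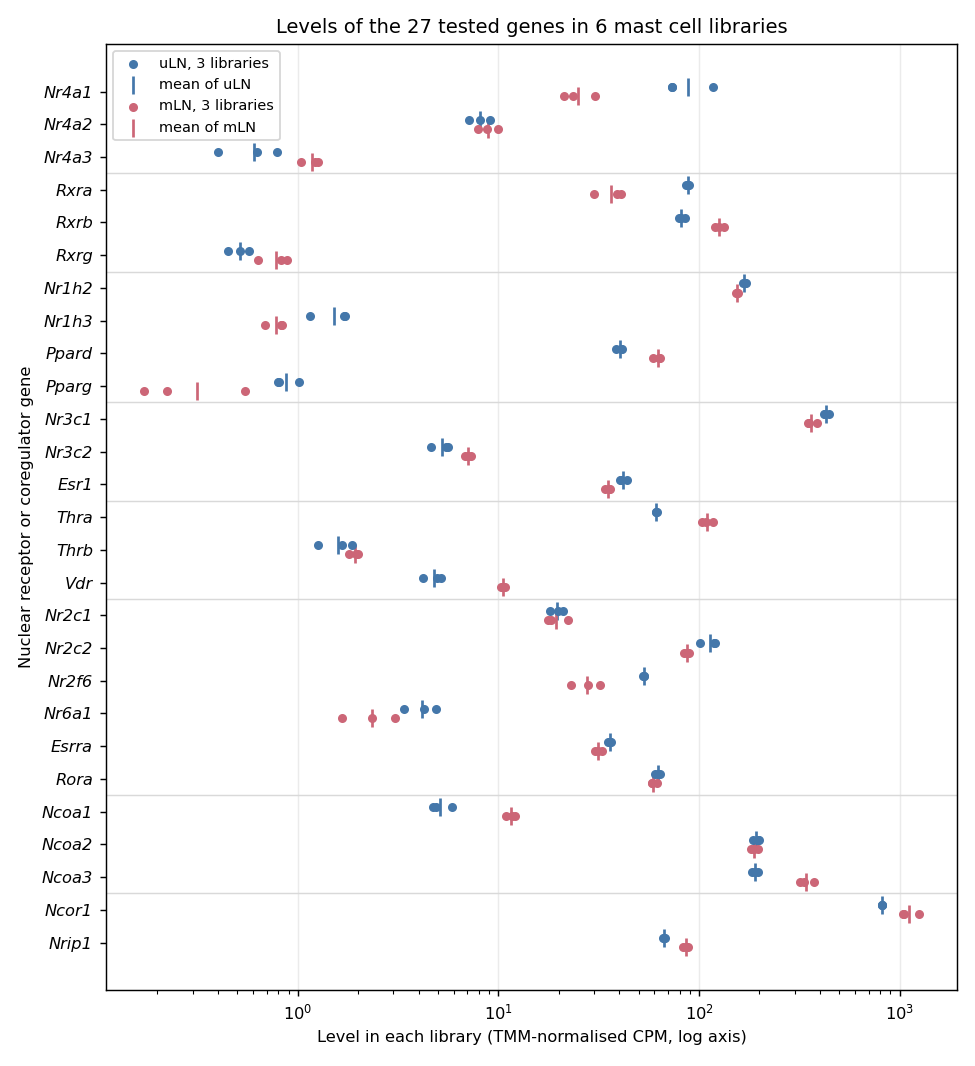
Level of each of the 27 tested genes in each library, in TMM-normalised CPM on a log axis, with 1 point per library and a bar at the mean of the 3 uLN (blue) or 3 mLN (red) libraries; grey lines separate the roles. The levels span from under 1 CPM (Pparg, Rxrg) to about 1112 CPM (Ncor1 in mLN), and the points of the 2 groups stand apart most widely for Nr4a1, Rxra, Vdr and Ncoa1.

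Of the NR4A orphan receptors, which are induced within minutes by many stimuli and act without a classical ligand, Nr4a1 had the largest fall among the 27 genes. Nr4a1 (chr15:101253902-101274795) had 1279, 1303 and 2034 reads in uLN replicates 1 to 3 and 430, 543 and 371 in mLN replicates 1 to 3. Every mLN library lay below every uLN library, and uLN replicate 3 stood above the other uLN libraries. Its levels were 73.3, 73.5 and 117 CPM in uLN (mean 87.8 ± 25.1, SD, n = 3, as for each ± on a CPM value) and 23.5, 30.2 and 21.3 CPM in mLN, a log2 fold change of -1.81 ± 0.19 (SE) with an adjusted p of 1.16e-05 by edgeR's quasi-likelihood test. In bulk RNA, fewer cells expressing a gene and less RNA per cell cannot be told apart, here and for each gene below. Nr4a2 had 124, 143 and 158 reads in uLN and 182, 158 and 138 in mLN. Its groups overlapped and it was not called (log2 fold change 0.14 ± 0.13, edgeR adjusted p 0.377). Nr4a3 was near the detection limit, with 11, 14 and 7 reads in uLN and 19, 22 and 22 in mLN. It was called higher (log2 fold change 0.94 ± 0.32, edgeR adjusted p 0.0249), but the call was lost without uLN replicate 1 or 3 or mLN replicate 2 or 3 (adjusted p up to 0.102 over the alternatives), with DESeq2 and without the filter. Nr4a1 made up 92.1 ± 1.37% of the summed NR4A level per kb in uLN and 74.7 ± 3.38% in mLN, and the share of Nr4a2 was 7.53 ± 1.18% and 23.2 ± 3.31%.

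Fos and Egr1, immediate early genes chosen for this comparison after their values were seen, had the 6 libraries in the same order as Nr4a1. Fos encodes a subunit of the AP-1 transcription factor, and it had 9204, 9595 and 13414 reads in uLN and 2827, 3676 and 2221 in mLN. Egr1, a zinc finger transcription factor gene, fell from 2923 ± 461 to 815 ± 327 CPM, a log2 fold change of -1.84 ± 0.25 (edgeR adjusted p 7.67e-05). That order of libraries was shared with Nr4a1 by 324 of the 12706 tested genes (2.55%). Only a gene with every mLN library below every uLN library can have it, and 4347 of the tested genes were called lower. The share therefore does not measure how rare the match is. The handling time of the cells before lysis is not given here, and its part in these levels was not tested.

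The RXR genes encode the common partners of the lipid, thyroid hormone, vitamin D and retinoic acid receptors, and the more abundant pair moved in opposite directions. Rxra (chr2:27676445-27763319) had 1544, 1583 and 1508 reads in uLN and 713, 738 and 520 in mLN. The uLN libraries were within a narrow range and each was above every mLN library, of which mLN replicate 3 was lowest. Its level fell from 88.1 ± 1.39 to 36.6 ± 5.96 CPM, a log2 fold change of -1.27 ± 0.096 (edgeR adjusted p 1.22e-06). Rxrb (chr17:34031812-34038403) had 1487, 1436 and 1377 reads in uLN and 2290, 2155 and 2333 in mLN. It rose from 81.7 ± 3.13 to 126 ± 7.11 CPM with no overlap between the groups, a log2 fold change of 0.63 ± 0.055 (edgeR adjusted p 3.58e-06). The ratio of Rxrb to Rxra, in CPM, was 0.963, 0.907 and 0.913 in the uLN libraries and 3.21, 2.92 and 4.49 in the mLN libraries. All mLN ratios were above all uLN ratios, and the exact two-sided permutation test gave p = 0.1, the smallest that 3 against 3 libraries allow, for this and each of 9 other ratios computed (adjusted p 0.1 for each). Rxra made up 43.7 ± 0.802% of the summed RXR level per kb in uLN and 17.3 ± 3.06% in mLN, where Rxrb made up 81.8 ± 3.23%. Rxrg had 8 to 10 reads in uLN and 11 to 16 in mLN and was not called (edgeR adjusted p 0.137).

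**Figure D2:**
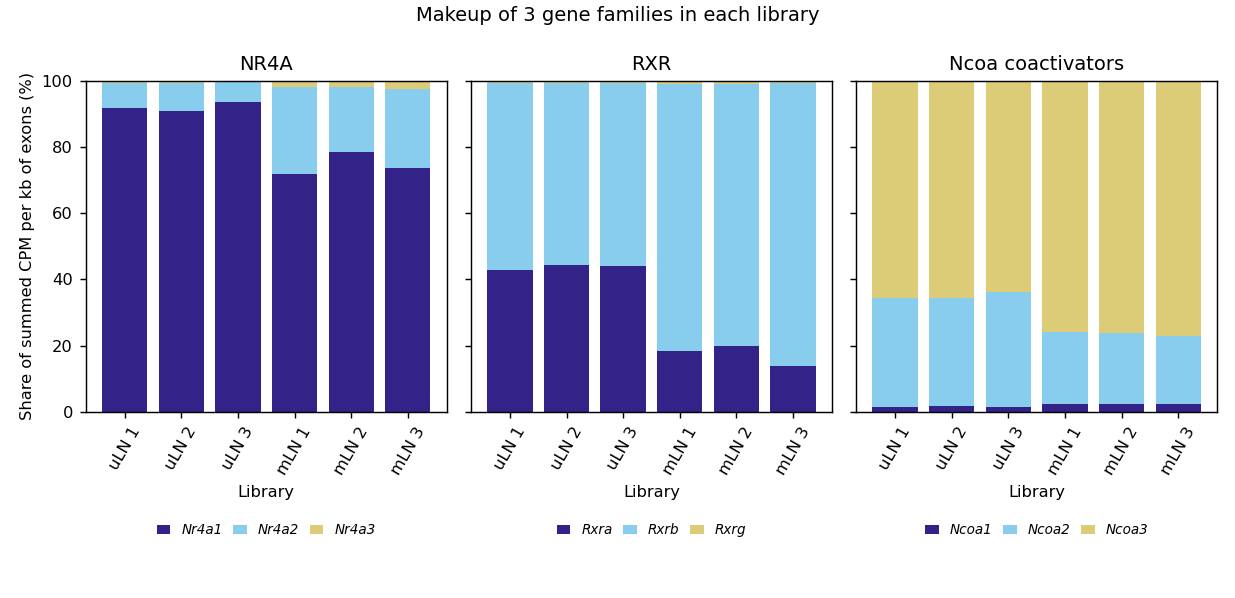
Share of each gene in its family's summed level, in percent of the summed CPM per kb of exons, with 1 stacked bar per library for the NR4A receptors, the RXR partners and the Ncoa coactivators. The Rxra share was 43.7% on average in uLN and 17.3% in mLN, and the shares of Nr4a2 and Ncoa3 were larger in each mLN library than in each uLN library.

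Among receptors that sense lipids and sterols, 3 of 4 tested were lower and Ppard was higher in mLN. Over all tested genes, 34.2% were lower and 33.2% higher. Ppard, a receptor for fatty acids that is expressed in most tissues, had 725, 724 and 672 reads in uLN and 1156, 1067 and 1119 in mLN. It rose from 40.3 ± 1.54 to 62.2 ± 2.61 CPM, a log2 fold change of 0.63 ± 0.057 (edgeR adjusted p 4.43e-06), and the groups did not overlap. Pparg, the fatty acid receptor known from fat cells and tissue macrophages, had 14, 18 and 14 reads in uLN and 10, 4 and 3 in mLN. Its log2 fold change, from these few reads, was -1.45 ± 0.44 (edgeR adjusted p 0.0139). The call was lost without uLN replicate 2 or mLN replicate 2 (adjusted p 0.0552 and 0.0575), and the log2 fold change was -2.10 without mLN replicate 1. Ppara had at most 2 reads in a library and was not tested. Nr1h2 and Nr1h3 encode the liver X receptors (LXRs) beta and alpha, which respond to oxysterols. Nr1h2 differed little, at 168 ± 2.99 CPM in uLN and 154 ± 1.83 in mLN (log2 fold change -0.12 ± 0.041, edgeR adjusted p 0.0228). Its call was lost without uLN replicate 1 or 2 or mLN replicate 2, with library totals alone and with DESeq2. Nr1h3, which macrophages express strongly, had 30, 30 and 20 reads in uLN and 15, 15 and 12 in mLN. Its groups did not overlap and it was called lower (log2 fold change -0.95 ± 0.29, edgeR adjusted p 0.0129), a call lost without uLN replicate 1 or 2 and with DESeq2 (adjusted p 0.0569, 0.0515 and 0.055).

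Macrophage and dendritic cell markers, read beside Pparg and Nr1h3, did not move as one. Of 13 tested markers 8 were lower, such as Cd5l (log2 fold change -3.26) and Csf1r (-0.98), and 4 were higher, namely Cd68 (1.86), Adgre1 (1.19), Marco (2.62) and Itgax (0.88). Over all tested genes, 34.2% were lower and 33.2% higher. The 15 markers summed to 359 to 503 CPM in uLN, highest in replicate 2, and to 303 to 339 CPM in mLN. That direction rested on Gpnmb, which had 206, 293 and 254 CPM in uLN and 71.8, 68.7 and 74.2 in mLN. The 14 others, a sum taken after these values were seen, came to 153, 210 and 182 CPM in uLN and 234, 234 and 265 in mLN, the opposite direction. That higher sum rested in turn on Cd68 (mean 24.9 CPM in uLN, 90.2 in mLN) and Adgre1 (26.7 and 61.1). The direction of the sum thus depends on which markers are included. C1qa was under 1 CPM in every library. The part of such cells in the Pparg and Nr1h3 values was not tested.

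Steroid receptors changed by small folds. Nr3c1, the glucocorticoid receptor gene, had 7414, 7401 and 7706 reads in uLN and 6403, 6375 and 6733 in mLN. It fell from 428 ± 12.8 to 364 ± 19.7 CPM without overlap, a log2 fold change of -0.24 ± 0.049 (edgeR adjusted p 0.00161). Nr3c2, the mineralocorticoid receptor gene, had 96, 100 and 80 reads in uLN and 124, 132 and 123 in mLN (log2 fold change 0.43 ± 0.13, edgeR adjusted p 0.016). The groups did not overlap, but the call was lost without uLN replicate 3 (adjusted p 0.0776). Esr1, the estrogen receptor alpha gene, fell from 41.7 ± 1.75 to 35.1 ± 0.985 CPM (log2 fold change -0.25 ± 0.059, edgeR adjusted p 0.00339). Against a fold of at least 1.2 (edgeR's glmTreat), none of these 3 was called, with adjusted p of 0.628, 0.0918 and 0.496.

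Thyroid hormone and vitamin D receptors were higher or not called. Thra (chr11:98740776-98769006), the thyroid hormone receptor alpha gene, had 1075, 1082 and 1062 reads in uLN and 1972, 1860 and 2045 in mLN. The uLN libraries were nearly equal and all lay below the mLN libraries. The level rose from 61.2 ± 0.339 to 110 ± 7.13 CPM, a log2 fold change of 0.84 ± 0.056 (edgeR adjusted p 5.00e-07). Exons of Thra share 263 bases (5.7% of its exon bases) with Nr1d1 on the opposite strand in the GENCODE M21 annotation. Nr1d1, the REV-ERB alpha gene, had 167, 152 and 126 reads in uLN and 504, 496 and 783 in mLN. Whether counting used strand is not given here, so reads of the shared bases cannot be told apart. Thrb had 22 to 33 reads in uLN and 33 to 35 in mLN and was not called (edgeR adjusted p 0.346). Vdr (chr15:97854427-97908296), the vitamin D receptor gene, had 86, 75 and 90 reads in uLN and 197, 185 and 184 in mLN. Every mLN library was above every uLN library, and the log2 fold change was 1.14 ± 0.12 (edgeR adjusted p 1.25e-05).

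Of the orphan receptors, whose natural ligands are unknown or disputed, 4 of 6 tested were lower and 0 higher. This stands beside 34.2% lower and 33.2% higher over all tested genes. Nr2f6 (chr8:71374118-71381967), known as a repressor of cytokine genes in T cells, had 930, 940 and 919 reads in uLN and 509, 577 and 403 in mLN. The mLN libraries spread more widely than the uLN libraries and all lay below them. The level fell from 53.0 ± 0.258 to 27.7 ± 4.47 CPM, a log2 fold change of -0.94 ± 0.097 (edgeR adjusted p 1.17e-05). In the annotation 1622 of its exon bases (54.4%) also belong to Ocel1 on the opposite strand. Ocel1 fell from 21.1 ± 0.482 to 2.46 ± 1.24 CPM, so without knowledge of strand the reads of these overlapping genes cannot be told apart and the Nr2f6 value is uncertain. Nr2c2, a receptor that binds direct repeats as a pair with the product of Nr2c1, fell from 113 ± 10.3 to 86.8 ± 2.37 CPM (log2 fold change -0.38 ± 0.066, edgeR adjusted p 4.25e-04). It shares 30.7% of its exon bases with Mrps25 on the opposite strand, which was also lower (log2 fold change -0.32), so this value too is uncertain. Nr2c1 was not called, at 19.6 ± 1.44 CPM in uLN and 19.4 ± 2.51 in mLN.

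Nr6a1, a receptor known from germ cells, had 74, 87 and 59 reads in uLN and 43, 55 and 29 in mLN. It was called lower (log2 fold change -0.82 ± 0.25, edgeR adjusted p 0.0126), a call lost without uLN replicate 2 (adjusted p 0.0638). Esrra, the estrogen-related receptor gene tied to mitochondrial metabolism, was slightly lower, at 36.0 ± 0.696 CPM in uLN and 31.5 ± 1.23 in mLN (log2 fold change -0.19 ± 0.06, edgeR adjusted p 0.0147). That call was lost without uLN replicate 2 (adjusted p 0.0579) and with DESeq2. Rora, the ROR alpha gene, had 1051 to 1114 reads in uLN and 1047 to 1073 in mLN and was not called (edgeR adjusted p 0.239). The remaining orphan receptors and both xenobiotic receptors were too low to test. Nr2f1 had at most 3 reads in a library, Nr1i3 at most 2, and Nr1i2 and Nr5a2 at most 1, all at or below the floor of 3 reads, or 0.164 to 0.172 CPM, below which a level was not taken as detected. Nr2f2, a receptor of stromal and endothelial cells, had 3 to 5 reads in uLN and 18, 4 and 5 in mLN. The library with 18 reads, mLN replicate 1, is the one in which fibroblast and epithelial markers were highest, and their part in this value was not tested.

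**Figure D3:**
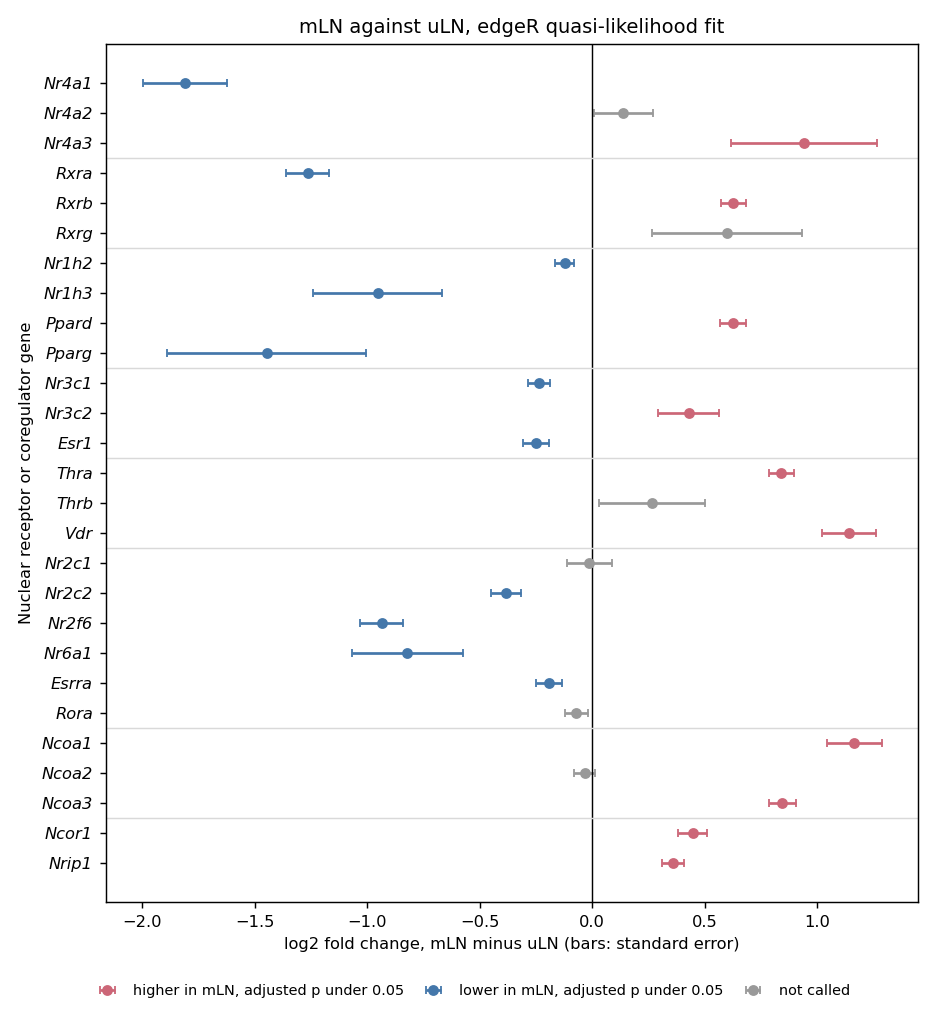
Log2 fold change of mLN against uLN for the 27 tested genes from the edgeR fit, with standard errors as bars; red marks genes called higher, blue genes called lower and grey genes not called, and grey lines separate the roles. The values run from -1.81 (Nr4a1) to 1.16 (Ncoa1), and the bars are widest for the genes with fewest reads (Pparg, Rxrg, Nr4a3).

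The coactivator genes Ncoa1, Ncoa2 and Ncoa3 encode the steroid receptor coactivators, which bring histone acetyltransferases to ligand-bound receptors. Ncoa3 (chr2:165992637-166073242) had 3437, 3365 and 3216 reads in uLN and 5842, 6023 and 6488 in mLN. The groups were far apart relative to their spread, and the level rose from 190 ± 6.16 CPM to 320, 335 and 372 CPM, a log2 fold change of 0.85 ± 0.059 (edgeR adjusted p 7.14e-07). Ncoa1 (chr12:4247362-4477206) had 82, 104 and 85 reads in uLN and 199, 211 and 210 in mLN. It was the scarcest of the coactivators and had the largest rise among the 27 genes, a log2 fold change of 1.16 ± 0.12 (edgeR adjusted p 1.21e-05). Ncoa2 had 3421, 3293 and 3452 reads in uLN and 3315, 3372 and 3441 in mLN, overlapped between groups and was not called (log2 fold change -0.03 ± 0.049, edgeR adjusted p 0.552). The ratio of Ncoa3 to Ncoa2, in CPM, was 0.986 ± 0.048 in uLN and 1.81 ± 0.065 in mLN. Ncoa3 made up 65.1 ± 1.04% of the family's summed level per kb in uLN and 76.3 ± 0.638% in mLN.

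Both corepressor genes were higher in mLN. Ncor1, whose product holds unliganded receptors in a histone deacetylase complex, had 14268, 14406 and 14255 reads in uLN and 18977, 18911 and 21709 in mLN. All mLN libraries were above all uLN libraries, with mLN replicate 3 highest, and the log2 fold change was 0.45 ± 0.065 (edgeR adjusted p 1.36e-04). Nrip1, a corepressor recruited by ligand-bound receptors and known for its control of metabolic genes, rose from 67.0 ± 1.08 to 85.8 ± 2.53 CPM (log2 fold change 0.36 ± 0.047, edgeR adjusted p 6.73e-05). Of 22 other coregulators tested, 8 were higher and 10 lower with a median log2 fold change of -0.11, against -0.01 over all tested genes. Shares over all tested genes were 33.2% higher and 34.2% lower. Crebbp, a histone acetyltransferase that works with the Ncoa proteins, had 2009, 2059 and 1894 reads in uLN and 1131, 1058 and 1087 in mLN, a log2 fold change of -0.89 ± 0.05. The Ncor1 complex subunits moved unequally, as Gps2 fell by 1.22 and Tbl1x rose by 0.68 on the log2 scale. Ncoa4, a receptor coactivator also known as a carrier of ferritin to autophagy, rose from 556 ± 14.6 to 802 ± 53.7 CPM. Each of these 4 passed edgeR's quasi-likelihood test, with adjusted p of 1.58e-07, 1.02e-06, 4.68e-07 and 8.92e-06 in that order.

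Outside the 34 genes, 7 other nuclear receptors were tested, of which 3 were higher and 2 lower. Rarg, a retinoic acid receptor gene, was lower by a small fold (log2 fold change -0.30 ± 0.05, edgeR adjusted p 3.71e-04). Nr1d2, the REV-ERB beta gene, was called lower (log2 fold change -0.19 ± 0.069, edgeR adjusted p 0.0339) with overlapping groups. The Nr1d2 call was lost without each uLN library in turn and without mLN replicate 1 or 2 (adjusted p up to 0.134). Of 13 chaperones that hold steroid receptors ready for ligand, 4 were higher, such as Hspa4 (log2 fold change 0.71), and 6 lower, such as Dnajb1 (-0.49). The counts for these receptors and chaperones stand beside 33.2% higher and 34.2% lower over all tested genes.

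Known target genes of the receptors were then read beside the receptors, from lists that name genes by their textbook regulators, most of which have other regulators too. The counts for these lists stand beside 33.2% higher and 34.2% lower over all tested genes, and the lists are not independent of earlier results of these data. Of 13 LXR target genes tested, 8 were higher and 3 lower, with a median log2 fold change of 0.22; one of the 3 is Nr1h3 itself. Abca1, the cholesterol exporter, had 179, 262 and 209 reads in uLN and 1135, 983 and 1155 in mLN. Every mLN library was far above every uLN library, and the log2 fold change was 2.30 ± 0.12 (edgeR adjusted p 9.02e-08). The fatty acid desaturase genes Scd1 and Scd2 rose by 3.48 ± 0.1 and 1.14 ± 0.048 on the log2 scale (edgeR adjusted p 3.42e-09 and 2.49e-08), Scd1 from 4.23 ± 0.78 to 47.5 ± 0.592 CPM. Smpdl3a, a phosphodiesterase gene, rose by 1.51 ± 0.094 (edgeR adjusted p 3.09e-07). Fasn, the fatty acid synthase gene, named here after its values were seen, was not called, with 2663 to 2839 reads in uLN and 2709 to 3191 in mLN.

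Of 16 tested target genes of the peroxisome proliferator-activated receptors (PPARs), 3 were higher and 8 lower, with a median log2 fold change of -0.22. Ucp2, which encodes a mitochondrial carrier, fell from 702 ± 35.1 to 244 ± 23.8 CPM (log2 fold change -1.53 ± 0.069, edgeR adjusted p 4.03e-08). Cd36, a fatty acid and lipoprotein receptor gene also expressed by macrophages, had 406, 594 and 500 reads in uLN and 110, 113 and 129 in mLN. Its uLN libraries stood in the order of the summed macrophage and dendritic cell markers, highest in uLN replicate 2, but its mLN libraries did not. Without Gpnmb those markers summed higher in mLN, where Cd36 was lower, but that higher sum rested on Cd68 and Adgre1. The part of macrophages in its fall (log2 fold change -2.12 ± 0.14, edgeR adjusted p 5.16e-07) was not tested. The fatty acid oxidation genes moved unequally, with Acadl higher (log2 fold change 0.68 ± 0.043, edgeR adjusted p 3.69e-07) and Hadha lower (-0.56 ± 0.043, adjusted p 1.41e-06).

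Of 18 glucocorticoid target genes tested, 10 were higher and 5 lower, with a median log2 fold change of 0.44, while Nr3c1 itself was slightly lower. The metallothionein genes led the list, Mt2 with 258, 268 and 307 reads in uLN and 4679, 3660 and 5818 in mLN, and Mt1 with 1524, 1641 and 1547 against 8113, 6654 and 9279. Metallothioneins bind zinc and also respond to metals. Their log2 fold changes were 4.06 ± 0.18 and 2.32 ± 0.11 (edgeR adjusted p 2.95e-08 and 5.98e-08), with no overlap between groups. Nfkbia, the gene of an NF-kappaB inhibitor, rose by 1.58 ± 0.079 on the log2 scale (edgeR adjusted p 7.21e-08). Zfp36, which encodes a protein that destabilises cytokine mRNAs, fell from 248 ± 28.2 to 126 ± 7.97 CPM (log2 fold change -0.97 ± 0.079, edgeR adjusted p 1.99e-06). Fkbp5, often used as a glucocorticoid readout and named here after its values were seen, was not called (log2 fold change -0.09 ± 0.054, edgeR adjusted p 0.15). Others of the list, also named after their values were seen, went both ways. Per1 (0.96), Sgk1 (0.86), Klf9 (0.76) and Tsc22d3 (0.23) were called higher, and Dusp1 (-0.67) and Errfi1 (-1.14) lower. The Tsc22d3 call was lost without each uLN library in turn.

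Of 12 tested genes that make, convert or carry receptor ligands, 3 were higher and 4 lower, beside 33.2% and 34.2% over all tested genes. Dio2, which encodes the enzyme that activates thyroid hormone, had 38, 46 and 43 reads in uLN and 8, 6 and 6 in mLN. Its fall (log2 fold change -2.67 ± 0.28, edgeR adjusted p 1.30e-05) stood beside the rise of Thra. Srd5a3, a polyprenol reductase gene of the steroid reductase family, fell from 21.0 ± 0.188 to 8.48 ± 1.82 CPM (log2 fold change -1.31 ± 0.13, edgeR adjusted p 7.73e-06). Cyp51, an enzyme of sterol synthesis, and Hsd17b4, a peroxisomal enzyme, were lower by smaller folds (log2 fold changes -0.41 and -0.27, edgeR adjusted p 0.00178 and 0.00155).

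In the loop through which REV-ERB and ROR receptors act on the circadian clock, all 15 tested genes were called, 12 higher and 3 lower, with a median log2 fold change of 0.85, where 67.4% of all tested genes were called and their median was -0.01. The Bhlhe41 call was lost with DESeq2 and without uLN replicate 1 or 2 or mLN replicate 1 or 2. Clock, Tef and Bhlhe41 were not called against a fold of 1.2. Dbp, a clock output gene, rose from 12.7 ± 0.846 to 47.9 ± 6.04 CPM (log2 fold change 1.91 ± 0.1, edgeR adjusted p 1.02e-07). Per3, Nfil3 and Hlf rose by 1.22, 1.61 and 1.66 on the log2 scale (edgeR adjusted p 8.03e-07, 1.19e-06 and 1.27e-06). Arntl, the clock activator gene that REV-ERB proteins repress, was named after its values were seen, with 541, 540 and 555 reads in uLN and 379, 372 and 354 in mLN. Arntl was thus lower in every mLN library (log2 fold change -0.60 ± 0.062, edgeR adjusted p 1.14e-05). Nr1d1 was higher, Nr1d2 was called lower with overlapping groups, and Rora was not called. The other 2 lower genes of the list were Per2 (-0.37) and Bhlhe41 (-0.55). Among the 12 higher were Npas2 (1.55), Cry1 (0.85) and Clock (0.31), also named after their values were seen. The part of the REV-ERB and ROR receptors in these values was not tested. The time of day at which nodes were collected is not given here, and its part in these values was not tested.

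**Figure D4:**
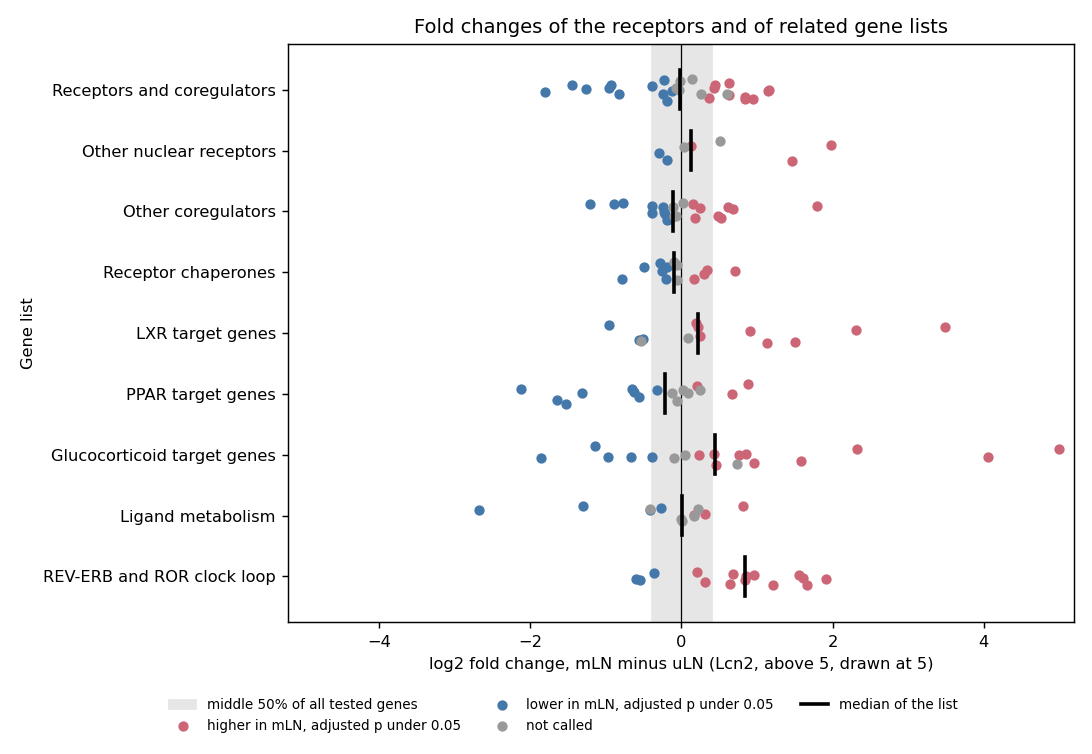
Log2 fold change of mLN against uLN for each tested gene of the receptor and coregulator set and of 8 related lists, with 1 point per gene coloured by its call, a black bar at each list's median and a grey band over the middle 50% of all tested genes. The median is -0.01 for the receptors and coregulators, 0.22 for LXR targets, -0.22 for PPAR targets, 0.44 for glucocorticoid targets and 0.85 for the clock loop; Lcn2, a glucocorticoid target with 0 reads in uLN, is drawn at the axis limit.

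Across 14 alternative settings, 9 of the 21 called genes were called in each (Nr4a1, Rxra, Rxrb, Ppard, Thra, Vdr, Nr2f6, Ncoa1 and Ncoa3), and 0 of the 21 changed sign. With a test against a fold of 1.2, 16 of the 27 were called, against 46.1% of all tested genes, and with a coefficient of variation of 0.2 between replicates, 13 were called, against 31.9%.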

How the data were processed

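RNA of 3 uLN and 3 mLN mast cell preparations was extracted and made into mRNA libraries for DNBSEQ sequencing, per the labels' protocols. Reads were handled with FastQC, cutadapt and TopHat on genome build GRCm38, per the submitters' processing notes. Not given in the sources used here: versions, the counting tool and its strand setting. A table of expected counts per gene, unscaled, was deposited by the authors, and 32.1% to 32.8% of each column's values were fractional. Counts were rounded to whole numbers, 1 row naming no gene was left out, and 17890 genes remained.

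Groups came from the sample labels. The comparison used edgeR 4.0.16 in R 4.3.3 (quasi-likelihood test, TMM scaling, default filter with a minimum count of 10), and Benjamini-Hochberg adjustment over the 12706 genes kept. Genes were called at an adjusted p under 0.05. Levels are TMM-normalised CPM as mean ± SD over 3 libraries, and floors of 3 reads per library cover counting error only. The same fit was first tested on simulated data. The 34 genes and the other lists were chosen with earlier results of these data known. All of the 34 are accounted for, and of each other list up to 4 genes are named in order of adjusted p, of which 2 are not reported here. Coordinates and promoters are RefSeq's for GRCm38.p6, and exon lengths and overlaps are from GENCODE M21. Alternatives were DESeq2 size factors, upper quartile factors, library totals alone, no filter, DESeq2 1.42.0, a test against a fold of 1.2, a coefficient of variation of 0.2, a replicate block and leaving out each library.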

Additional observations from a re-analysis of the deposited data

How the results depend on the processing

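With a coefficient of variation of 0.2 between replicates, in place of the smaller estimated spread, 2145 genes were called higher and 1913 lower over the whole table, against 4219 and 4347, and 6 of the receptor and coregulator genes were called lower in place of 11. A test against a fold of 1.2, stricter by construction, called 7 of them lower. Leaving out 1 library gave 6 to 11 lower, with the lowest count without uLN replicate 2, where Nr1h2, Nr1h3, Pparg, Nr6a1 and Esrra were lost, and the cause was not tested. Nr2c1, which was not called, changed sign to 0.015 with library totals alone and to 0.028, 0.048 and 0.033 on the log2 scale without uLN replicate 3, mLN replicate 2 and mLN replicate 3, and ran from -0.12 to 0.048 over the left-out libraries. The other scaling factors, no filter and DESeq2 left 8 to 11 called lower. With the replicate number as a block, 10 were higher and 11 lower, and 4122 and 4263 of all genes. Deviations of libraries with the same number correlated by 0.032, -0.14 and -0.00019, and those of libraries with different numbers by -0.17 to 0.18. With 3 libraries per group these values cannot decide whether libraries of the same number share a mouse or a batch. Of 224 list counts under alternatives, 200 lay within 1.5 times of the reported count. Depth limits Nr4a3, Rxrg, Pparg, Nr1h3 and Thrb most, each with at most 35 reads in a library.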
